A study of Mus musculus with 2 samples.

Results

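The genes described here are 7 genes of the MHC class II presentation route: H2-Aa, H2-Ab1 and H2-Eb1, which encode chains of the classical class II molecules, Cd74, the invariant chain, H2-DMa and H2-DMb1, the chains of the peptide editor H2-DM, and Ciita, the transcriptional coactivator of the set. They were found by symbol, all 7 of them, among the 28692 genes of 2 single-cell libraries, and their UMIs (counts of unique molecules) were summed over the cells of each of the authors' clusters in each library. Both libraries hold CD45+ leukocytes from adipose tissue of wild-type C57BL/6 mice, taken after 1 week on either normal chow, the control, or a ketogenic diet. Cells resident in the tissue were told from blood cells by a label given intravenously. The mice are labelled as adult, and the number of animals behind a library is not given in the sources used here.

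Class II molecules present peptides from the endocytic route to CD4 T cells. An alpha and a beta chain assemble with the invariant chain, which blocks the groove and guides the complex to endosomes. There proteases such as cathepsin S trim the invariant chain, and H2-DM exchanges its last fragment for other peptides. Dendritic cells, B cells and macrophages carry the route, and mouse NK, T and innate lymphoid cells carry little or none of it, although some innate lymphoid cells are known to. CIITA binds no DNA itself: it is recruited by factors bound at the X and Y boxes in front of class II genes.

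The libraries hold 4545 chow cells and 5614 ketogenic cells at medians of 3469 and 3461.5 UMIs per cell. Within clusters the depth differed more, from medians of 2296.5 and 3147 UMIs in NK-like cells to 7938.5 and 4581 in cluster 8. The authors' cluster table covers 10017 cells in 13 clusters (0 to 12), named here from marker genes. All intervals below are 95% intervals for counting error only, since each diet has 1 library, which leaves no replicate and nothing to test between the diets. Levels are CPM, a gene's UMIs scaled to the total UMIs of the cluster's cells in that library, and ratios are ketogenic over chow. Both libraries share 41 cell barcodes, of which 3 lie in the same cluster in both. All 7 conventional dendritic cell type 1 (cDC1) markers were raised in cluster 6 and all 7 mature dendritic cell (DC) markers in cluster 12. The cDC2-like cluster 5 raised 4 of 7 cDC2 markers and also 5 of 7 plasmacytoid DC (pDC) markers. The macrophage-like cluster 3 raised 9 of 10 macrophage markers, 4 of 7 monocyte markers and 3 of 4 neutrophil markers. Cluster 4, led by both T and NK cell genes, and cluster 8, led by Retnla with 3 of 10 macrophage markers raised, stay unnamed.

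Of the members, 5 lie within 197 kb on chromosome 17 (GRCm38, GENCODE M21 annotation): H2-DMa at chr17:34119541-34139101, H2-DMb1 at chr17:34153072-34160230, H2-Ab1 at chr17:34257689-34269419, H2-Aa at chr17:34282744-34287823 on the minus strand, and H2-Eb1 at chr17:34305867-34316674. Ciita lies at chr16:10480059-10528418. The sequence in front of the start is shown for the 3 members with an X-type and a Y-type match, as the 150 bases before the start in RefSeq on GRCm38.p6: H2-Aa at chr17:34287824-34287973 (minus strand), H2-DMb1 at chr17:34153041-34153190 (plus strand, running into the gene as GENCODE draws it) and H2-Eb1 at chr17:34305717-34305866 (plus strand). Each is printed 5′ to 3′, and capitals mark the matches.
H2-Aa: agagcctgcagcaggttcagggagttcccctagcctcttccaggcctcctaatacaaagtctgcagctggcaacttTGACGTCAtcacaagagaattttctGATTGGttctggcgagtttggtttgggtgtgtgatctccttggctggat
H2-DMb1: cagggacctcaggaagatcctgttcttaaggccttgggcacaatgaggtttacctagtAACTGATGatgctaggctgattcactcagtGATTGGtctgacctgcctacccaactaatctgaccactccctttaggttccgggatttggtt
H2-Eb1: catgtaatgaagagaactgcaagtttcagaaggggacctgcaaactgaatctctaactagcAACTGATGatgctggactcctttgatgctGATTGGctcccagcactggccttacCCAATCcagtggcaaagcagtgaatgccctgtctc

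The letters searched, on both strands, were an X box core AACNGATG, the palindromic X2 form TGACGTCA and a Y box core GATTGG. H2-DMb1 and H2-Eb1 each held the X box core ahead of a Y box core, with 22 and 21 bases between the matches. H2-Aa held the X2 form ahead of a Y box core, with 17 bases between, and H2-Eb1 had a second Y match on the other strand. Of 32851 windows of this length in the RefSeq table, 1.14% held the X box core, 1.36% the X2 form, 10.9% the Y box core, and 0.295% an X-type match with a Y match. Among the other class II genes, H2-DMb2 and H2-Eb2 held the same pair, 22 and 21 bases apart, and H2-Oa and H2-Ob held the Y box core alone. Both windows listed for H2-DMa, at chr17:34122682-34122831 and chr17:34125368-34125517, had none of these letters. They lie within the gene as GENCODE draws it, and the sequence before any other start of H2-DMa was not searched. Promoters of H2-Ab1, Ciita and Cd74 were not used. A match is a string of letters, not a measured site.

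Summed, the 7 genes were highest in the cDC2-like and cDC1-like clusters. In the cDC2-like cluster they summed to 89588 CPM in chow (interval 89194 to 89984) and 96727 CPM in the ketogenic library (96360 to 97094), so that about 1 in 10 of these cells' UMIs came from them. The cDC1-like cluster followed at 67664 and 76834 CPM. Next came the Retnla-high cluster 8 at 53144 and 60824 CPM and the mature DC-like cluster 12 at 52410 and 48296 CPM. In chow the intervals of clusters 8 and 12 overlapped, and in the ketogenic library they did not.

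The cycling cluster 10 (44251 and 32954 CPM) and the macrophage-like cluster 3 (42085 and 32526 CPM) came below. Their intervals overlapped in the ketogenic library but not in chow. The B and plasma-like cluster 9 was lower again, at 13057 and 21788 CPM. Cells of the Treg-like cluster 7 gave 11309 and 6995 CPM. The other 5 lymphoid clusters gave 3113 to 6929 CPM in chow and 1674 to 2671 CPM in the ketogenic library.

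**Figure D1:**
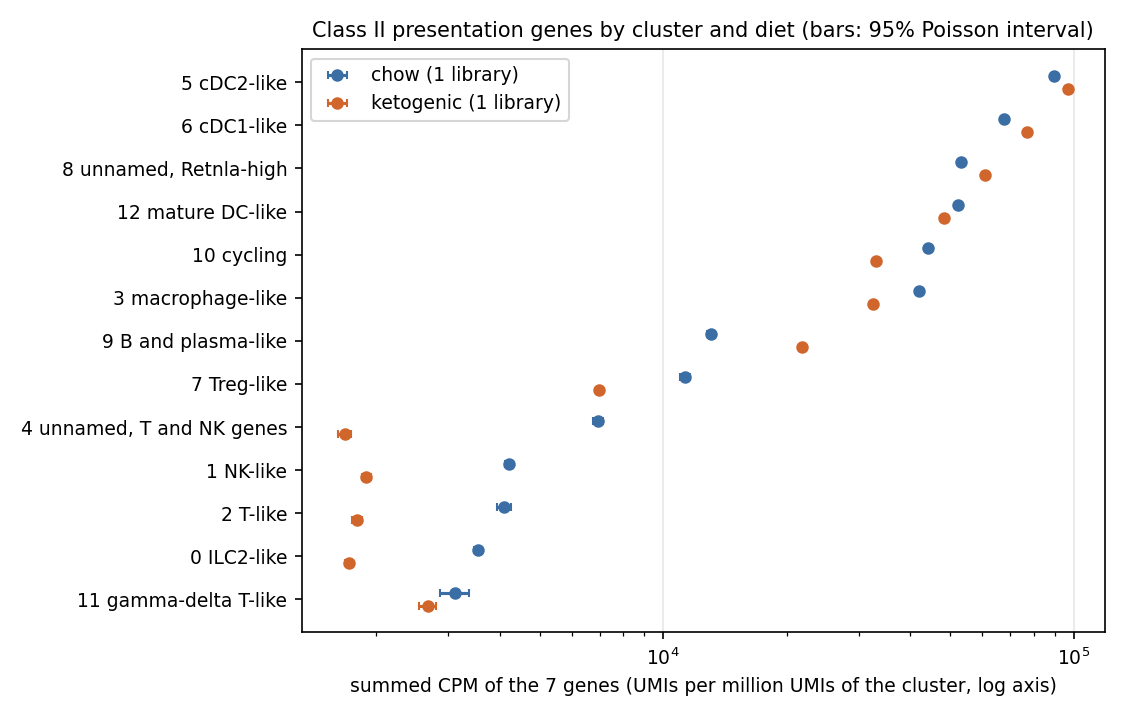
Summed CPM of the 7 class II genes in each cluster (log axis), with chow in blue, ketogenic in orange and bars for the 95% Poisson interval of 1 library. Clusters 5, 6, 8, 12, 10 and 3 lie between 32526 and 96727 CPM in both libraries, and the lymphoid clusters 0, 1, 2, 4 and 11 lie between 1674 and 6929 CPM.

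The NK-like cluster 1, which should lack class II, gave 4224 CPM in chow and 1893 CPM in the ketogenic library, and serves as the background. A level 10-fold above it in chow was used to call a cluster antigen-presenting. Clusters 5, 6, 8, 12 and 10 passed, at 21.2-, 16.0-, 12.6-, 12.4- and 10.5-fold. The macrophage-like cluster lay just under, at 9.96-fold in chow and 17.2-fold in the ketogenic library. The B and plasma-like cluster reached 3.09-fold in chow and 11.5-fold in the ketogenic library. The NK-like background rests partly on few cells. In chow 37 of 724 NK-like cells held 36.4% of its class II UMIs, and 54 of 1062 held 33.3% in the ketogenic library. The other NK-like cells stood at 2943 and 1360 CPM. Against those cells the folds would be larger, and the macrophage-like cluster would pass the rule.

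After each cell was thinned to 1000 UMIs, 94.8% of NK-like cells in chow held a UMI of any of the 7 genes (exact interval 92.9% to 96.3%), against 76.0% in the ketogenic library (73.3% to 78.5%). Unthinned, the shares were 99.7% and 98.3%, at medians of 2296.5 and 3147 UMIs per cell. ILC2-like cells had 94.0% and 76.7% thinned, and Treg-like cells 95% and 76.8%. None of these shares stood above the NK-like background beyond its interval, and they are read as background and not as expression. The median cell's share of UMIs from the 7 genes was alike in all 6 lymphoid clusters, from 0.278% to 0.307% in chow and from 0.130% to 0.139% in the ketogenic library.

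The classical alpha chain H2-Aa stood at 14243 CPM in chow and 15314 CPM in the ketogenic library in cDC2-like cells, and at 11364 and 12995 CPM in cDC1-like cells. In mature DC-like cells it was 10008 and 9892 CPM, in cluster 8 7806 and 8788 CPM, and in macrophage-like cells 6816 and 5195 CPM. NK-like cells had 741 and 315 CPM. Unlike in the sum, the mature DC-like cluster stood above cluster 8 in both libraries.

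H2-Ab1, the beta chain that pairs with H2-Aa, stood at 17019 and 17719 CPM in cDC2-like cells, at 13650 and 15121 CPM in cDC1-like cells and at 10386 and 10714 CPM in cluster 8. Mature DC-like cells had 7174 and 5267 CPM, below cluster 8 in both libraries. Macrophage-like cells had 7626 and 5409 CPM.

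H2-Eb1, the beta chain of the second classical molecule, was at 10487 and 10789 CPM in cDC2-like cells. It was at 7882 and 8371 CPM in cDC1-like cells and at 7959 and 6978 CPM in mature DC-like cells, whose interval overlapped that of cDC1-like cells in chow only. The alpha chain of that molecule, H2-Ea, is not among the symbols of the files and was not analysed here. The values of H2-Eb1 therefore do not show whether these cells make a complete second classical molecule.

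Cd74, on chromosome 18, was at 45514 and 50247 CPM in cDC2-like cells, at 32627 and 37782 CPM in cDC1-like cells, and at 26558 and 32093 CPM in cluster 8. Mature DC-like cells had 26699 and 25671 CPM and macrophage-like cells 21330 and 17198 CPM. Cells of the B and plasma-like cluster had 8442 and 13338 CPM, against 1722 and 768 CPM in NK-like cells.

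The peptide editor H2-DM had a different order. H2-DMa was at 1165 and 1315 CPM in cDC2-like cells, 1146 and 1335 CPM in cDC1-like cells and 1221 and 1544 CPM in cluster 8, while mature DC-like cells had 370 and 373 CPM. H2-DMb1 was at 1121 and 1297 CPM in cDC2-like cells and 961 and 1200 CPM in cDC1-like cells, and at 187 and 107 CPM in mature DC-like cells. So the mature DC-like cluster, whose class II sum overlapped that of cluster 8 in chow, stood far below it in H2-DMa. H2-DMb1 is uncertain, since 22.7% of the 50-base stretches of its transcripts also occur in those of the neighbouring H2-DMb2.

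Ciita gave few UMIs: 82 to 124 per library in each of the cDC clusters, and 0 to 10 in each lymphoid cluster. Its level was 39.0 and 44.9 CPM in cDC2-like cells, 33.6 and 30.4 CPM in cDC1-like cells, and 15.9 and 14.6 CPM in macrophage-like cells (81 and 13 UMIs). NK-like cells had 3.34 and 1.67 CPM, from 6 UMIs in each library. Clusters 4 and 11 had 0 UMIs in the ketogenic library, where 3 counts would correspond to 1.55 and 4.40 CPM. Only the cDC2-like and cDC1-like clusters had at least 100 Ciita UMIs over both libraries, the minimum used below for a ratio to be counted.

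The make-up of the class II UMIs differed between clusters. Among the clusters, mature DC-like cells had the fewest H2-DM UMIs for their classical chains: 2.22 UMIs of H2-DMa and H2-DMb1 per 100 UMIs of H2-Aa, H2-Ab1 and H2-Eb1 in chow (interval 1.93 to 2.54) and 2.17 in the ketogenic library (1.85 to 2.53). The cDC2-like cluster had 5.48 and 5.96, the cDC1-like cluster 6.40 and 6.95, the macrophage-like cluster 8.50 and 9.32, and cluster 8 had 8.92 and 9.99. The interval of the mature DC-like cluster lay apart from each of these in both libraries.

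The chain pair also shifted in that cluster. Per 100 UMIs of H2-Aa, mature DC-like cells had 71.7 UMIs of H2-Ab1 in chow (68.3 to 75.3) and 53.2 in the ketogenic library (50.3 to 56.4). The other clusters had 99.7 to 179, with 119 and 116 in cDC2-like cells and 133 and 122 in cluster 8. H2-Eb1 made up 15.2% and 14.4% of the class II UMIs of mature DC-like cells, against 11.7% and 11.2% in cDC2-like cells.

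B and plasma-like cells stood out in the invariant chain. Cd74 made up 64.7% (63.7% to 65.6%) of their class II UMIs in chow and 61.2% (60.7% to 61.7%) in the ketogenic library. In clusters 3, 5, 6, 8, 10 and 12 it was 46.5% to 50.9% in chow and 48.4% to 53.2% in the ketogenic library. In the 6 lymphoid clusters the share of Cd74 was 40.6% to 45.3% in chow and 40.6% to 48.8% in the ketogenic library. Their share of H2-Ab1 was 21.6% to 27.2% and 20.5% to 25.7%, against 13.7% to 20.3% and 10.9% to 20.7% in clusters 3, 5, 6, 8, 10 and 12. In chow these ranges did not overlap. In the ketogenic library the Treg-like and gamma-delta T-like clusters, at 20.5% and 20.6% of H2-Ab1, lay just under the cycling cluster.

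**Figure D2:**
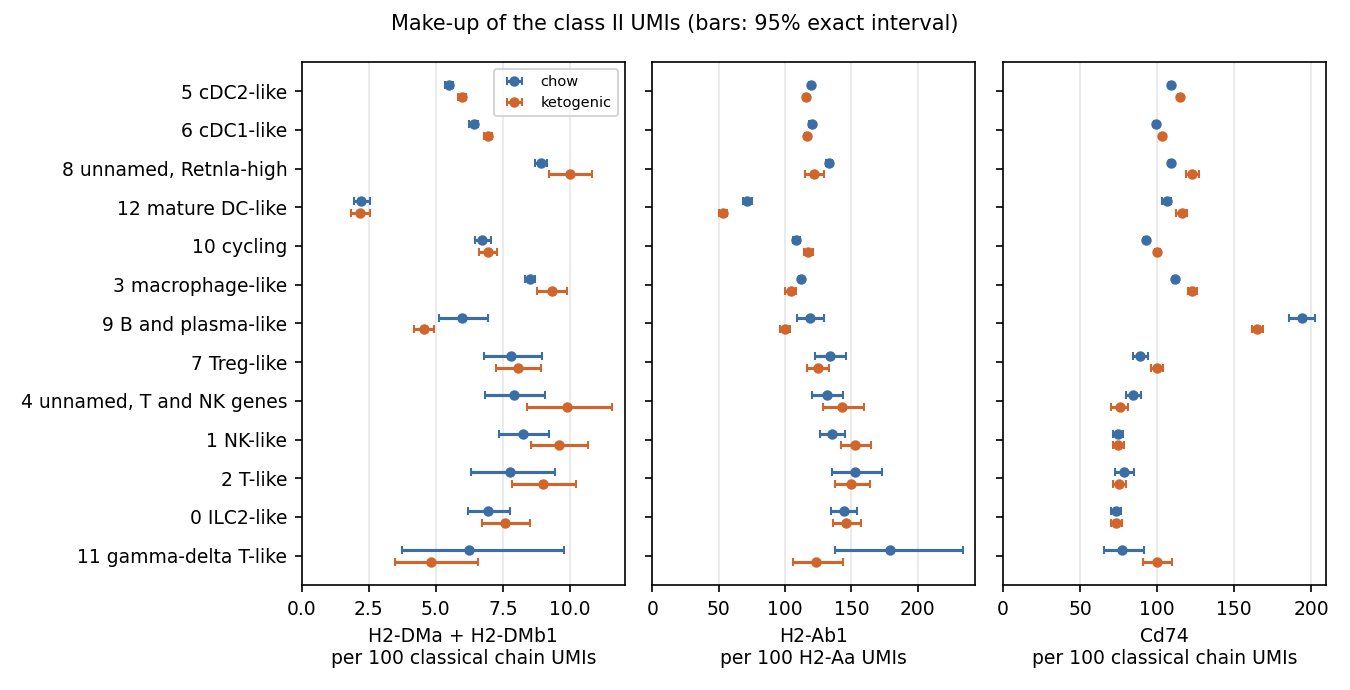
UMIs of H2-DMa and H2-DMb1 per 100 UMIs of H2-Aa, H2-Ab1 and H2-Eb1 (left), of H2-Ab1 per 100 of H2-Aa (middle) and of Cd74 per 100 of the 3 classical chains (right) in each cluster, chow in blue and ketogenic in orange, with 95% exact intervals. The mature DC-like cluster is lowest in the left panel, at 2.22 and 2.17, and in the middle one, at 71.7 and 53.2, and the B and plasma-like cluster is highest in the right one, at 194 and 165.

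Between the diets, few members passed 1.5-fold within the antigen-presenting clusters. The sum had its lowest ratio among these in the cycling cluster, at 0.745, beside 0.773 in the macrophage-like cluster. Clusters 5, 6, 8, 10 and 12 held 32 pairs of a member and a cluster with at least 100 UMIs. Of these, 0 were at least 1.5-fold higher in the ketogenic library and 3 at least 1.5-fold lower (5 as a mean over cells). With clusters 3 and 9 added, chosen after the levels were seen, 5 of 44 pairs were higher, all in cluster 9, and 3 were lower. In cluster 9, 42.8% of all genes were higher by that fold, and none of its 5 members stayed past 1.5-fold after division by the median ratio of all genes, H2-Aa standing highest at a log2 ratio of 0.53. The 3 lower pairs were H2-Eb1 and H2-DMa in the cycling cluster and H2-DMb1 in the mature DC-like cluster, where 8.42% and 7.97% of all genes were lower.

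In the cDC2-like cluster the class II sum was 1.08 times as high in the ketogenic library as in chow (interval 1.07 to 1.09), and in the cDC1-like cluster 1.14 times (1.13 to 1.14). In cDC2-like cells 6 members were higher, from 1.03-fold for H2-Eb1 to 1.16-fold for H2-DMb1, and Ciita had a ratio of 1.15 with an interval (0.867 to 1.53) that includes no change. None passed 1.5-fold, beside 6.34% of 4242 genes higher and 5.19% lower by that fold in the cluster. In cDC1-like cells 6 of 7 were higher, up to 1.25-fold for H2-DMb1, and Ciita had a ratio of 0.905 with an interval (0.672 to 1.22) that includes no change. There 6.75% of 4354 genes passed 1.5-fold upward and 4.2% downward. The median log2 ratio of the members was 0.14 in cDC2-like and 0.19 in cDC1-like cells, beside 0.03 and 0.07 over all genes tested. T (CD4) markers summed to 78.4 CPM in chow and 293 CPM in the ketogenic library in cDC2-like cells, and to 46.3 and 154 CPM in cDC1-like cells, with 5 of 5 and 3 of 3 genes at the minimum at least 1.5-fold higher. Their part in these ratios was not tested.

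Cluster 8 had a ratio of 1.14 for the sum (1.13 to 1.16), with the 6 members at the minimum between 1.03-fold for H2-Ab1 and 1.26-fold for H2-DMa. The intervals of H2-Ab1 (0.991 to 1.07) and H2-DMb1 (0.980 to 1.26) include no change, and as a mean over cells both had log2 ratios below 0, of -0.093 and -0.036. Upward 5.71% and downward 14.3% of 3134 genes passed 1.5-fold. It holds 362 chow cells and 47 ketogenic cells.

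In the mature DC-like cluster the sum had a ratio of 0.921 (0.903 to 0.941). H2-Aa stayed at 0.988 (0.944 to 1.04), while H2-Ab1 had 0.734 (0.692 to 0.779) and H2-DMb1 0.571 (0.373 to 0.859), from 73 and 37 UMIs. Lists of markers named for other cells differed in this cluster too. The cDC2 list stood at 403 and 86.7 CPM, the cDC1 list at 187 and 321 CPM and the macrophage list at 637 and 116 CPM. The T (CD8) list stood at 5851 and 11195 CPM. At most 1 gene of each list reached 100 UMIs, so the T (CD8) sum is mainly that of 1 gene. That sum is not read as RNA of CD8 T cells. The part of these lists in the ratios was not tested. In this cluster 8.35% of 790 genes passed 1.5-fold upward and 7.97% downward.

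In the macrophage-like cluster the sum was lower in the ketogenic library, with a ratio of 0.773 (0.763 to 0.782). All 6 members at the minimum were lower, from 0.709 for H2-Ab1 to 0.869 for H2-DMb1, and none passed 1.5-fold. By that fold 9.39% of 4983 genes were higher and 8.87% lower. The members' median log2 ratio was -0.41, beside 0.04 over all genes. Ciita was level within its counting error, at 0.913 (0.466 to 1.65). Of the cluster's cells 85.6% are from chow.

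The cycling cluster had a ratio of 0.745 for the sum (0.736 to 0.753), with H2-Eb1 at 0.658 and H2-DMa at 0.643 past 1.5-fold; without the 2% of cells with the most UMIs H2-Eb1 was no longer past it, at a log2 ratio of -0.57 against -0.60. Of 3419 genes there, 12.5% were higher and 8.42% lower by that fold. The B and plasma-like cluster went the other way, at 1.67 (1.63 to 1.71), with H2-Aa at 2.05, H2-Eb1 at 1.81, H2-Ab1 at 1.72, Cd74 at 1.58 and H2-DMa at 1.56. There 42.8% of 1962 genes were higher and 3.11% lower by 1.5-fold, and the members' median log2 ratio of 0.72 stands beside 0.50 over all genes. Both clusters hold cells of 2 kinds, described below.

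In the lymphoid clusters the low class II level was lower still in the ketogenic library. The 6 members at the minimum were all at least 1.5-fold lower in the ILC2-like, NK-like and T-like clusters and in cluster 4. The background share of genes lower by that fold was 5.29%, 5.14%, 4.54% and 3.91% in turn. H2-DMa lost this fold without the 2% of cells with the most UMIs, at a log2 ratio of -0.55 in both ILC2-like and NK-like cells. In ILC2-like cells it also lost it as a mean over cells, at -0.57, and turned to 2.35, a ratio of remnants, when 10% of the UMIs were taken off as free RNA. In the Treg-like cluster 5 of 6 passed, beside 5.32% of genes, and none of these 5 did without the 2% of cells with the most UMIs; in the gamma-delta T-like cluster 1 of 4 passed, beside 4.29%. The sum had a ratio of 0.485 (0.470 to 0.501) in ILC2-like, 0.448 (0.434 to 0.463) in NK-like, 0.438 (0.418 to 0.460) in T-like, 0.242 (0.231 to 0.252) in cluster 4, 0.618 (0.599 to 0.639) in Treg-like and 0.858 (0.782 to 0.943) in gamma-delta T-like cells. Without the 2% of cells with the most UMIs it was 0.428 in cluster 4 and 0.568 in gamma-delta T-like cells, and as a mean over cells 0.383 in cluster 4. Taking off 10% as free RNA moved the log2 ratio of the sum to -5.43 in ILC2-like, -4.83 in NK-like, -5.49 in T-like cells and -8.92 in cluster 4, and to -1.55 in gamma-delta T-like cells. These are ratios of remnants, since the subtraction exceeds the class II level of all these clusters in the ketogenic library, and of ILC2-like and gamma-delta T-like cells in chow as well.

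**Figure D3:**
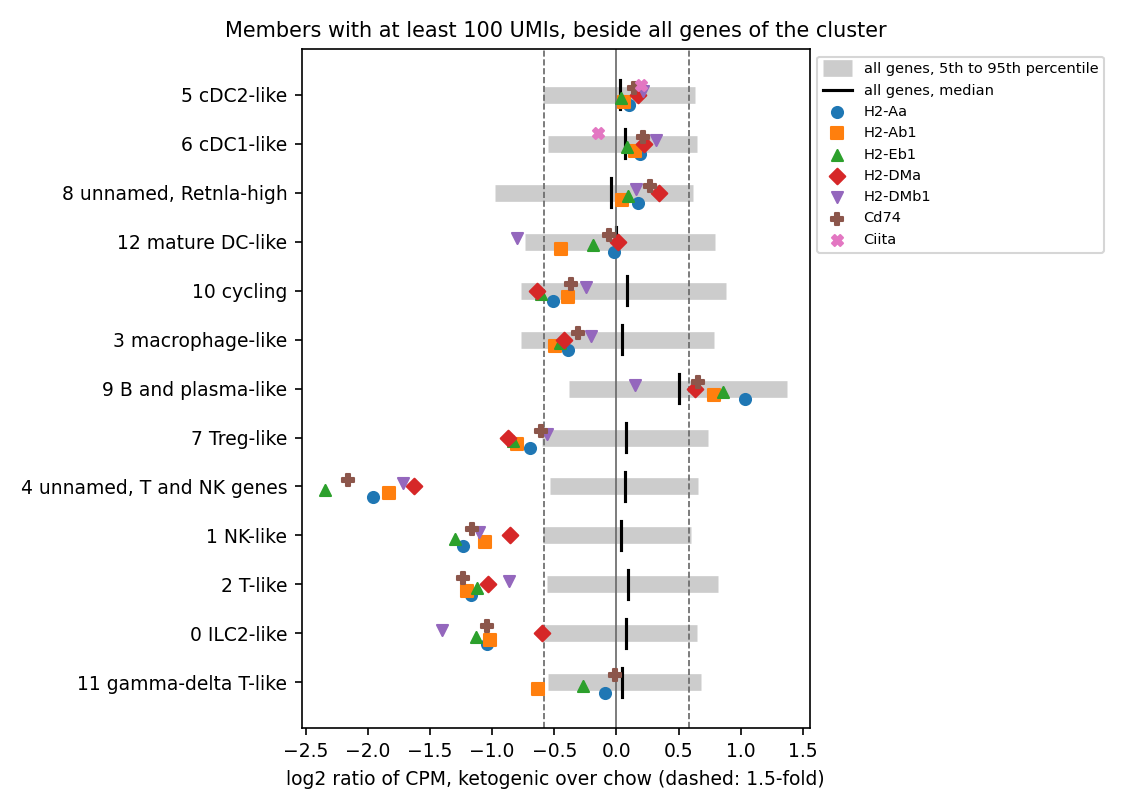
Log2 ratio of CPM, ketogenic over chow, of each member with at least 100 UMIs in a cluster (symbols), beside the 5th to 95th percentile (grey bar) and the median (black line) of all genes at that minimum; dashed lines mark 1.5-fold. The members lie to the left of the grey bar in clusters 0, 1, 2 and 4, and within it in clusters 5, 6, 8 and 9.

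Without the 5% of cells with the most class II UMIs, the sum was nearly the same in all 6 lymphoid clusters, at 2763 to 2984 CPM in chow and 1277 to 1389 CPM in the ketogenic library. That leaves the gamma-delta T-like cluster at 2825 and 1277 CPM, against 3113 and 2671 CPM with all cells: 9 of its 170 ketogenic cells held 56.0% of its class II UMIs. In the same remaining cells the 10 summed macrophage markers stood at 568 to 655 CPM in chow and 97.7 to 107 CPM in the ketogenic library, with NK-like cells at 595 and 97.7 CPM. Only 1 of the 10, Lyz2, reached 100 UMIs in each of these clusters, so this sum is mainly that of Lyz2. The lists of other antigen-presenting cells differed less and in both directions. In NK-like cells cDC1 markers stood at 468 and 501 CPM and mature DC markers at 177 and 193 CPM, but cDC2 markers at 220 and 162 CPM and pDC markers at 211 and 152 CPM. In ILC2-like cells, which raised 1 of 7 cDC2 markers themselves, cDC2 markers stood at 495 and 541 CPM and B cell markers at 8.25 and 19.7 CPM, but cDC1 markers at 68.8 and 51.1 CPM and pDC markers at 170 and 141 CPM. The part of free RNA in these values was not tested.

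A few cells held much of the class II RNA of the lymphoid clusters. In the Treg-like cluster 8 of 160 chow cells held 78.1% of the class II UMIs, and 17 of 328 ketogenic cells held 82.9%. Those cells were picked by raw class II UMIs, which in itself favours cells with many UMIs. They had medians of 6020 and 10521 UMIs, against 2463.5 and 3454 in the other cells. Their summed Treg markers stood at 952 and 1545 CPM, against 3438 and 3380 CPM in the other cells, and their summed macrophage markers at 5522 and 1413 CPM, against 630 and 104 CPM. In cluster 4, 14 of 269 chow cells held 62.6% of the class II UMIs, and 26 of 515 ketogenic cells 29.6%. No doublet caller was run, and the part of doublets was not tested.

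Cell by cell, the macrophage-like cluster was spread widely in both libraries. In chow the median cell had 3.97% of its UMIs from the 7 genes, with the 10th and 90th percentiles at 0.314% and 8.03%. In the ketogenic library the median was 1.81% and the same percentiles were 0.155% and 8.02%. The highest cells thus reached nearly the same share in both libraries, while the 25th percentile was 0.281% in the ketogenic library against 1.04% in chow.

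**Figure D4:**
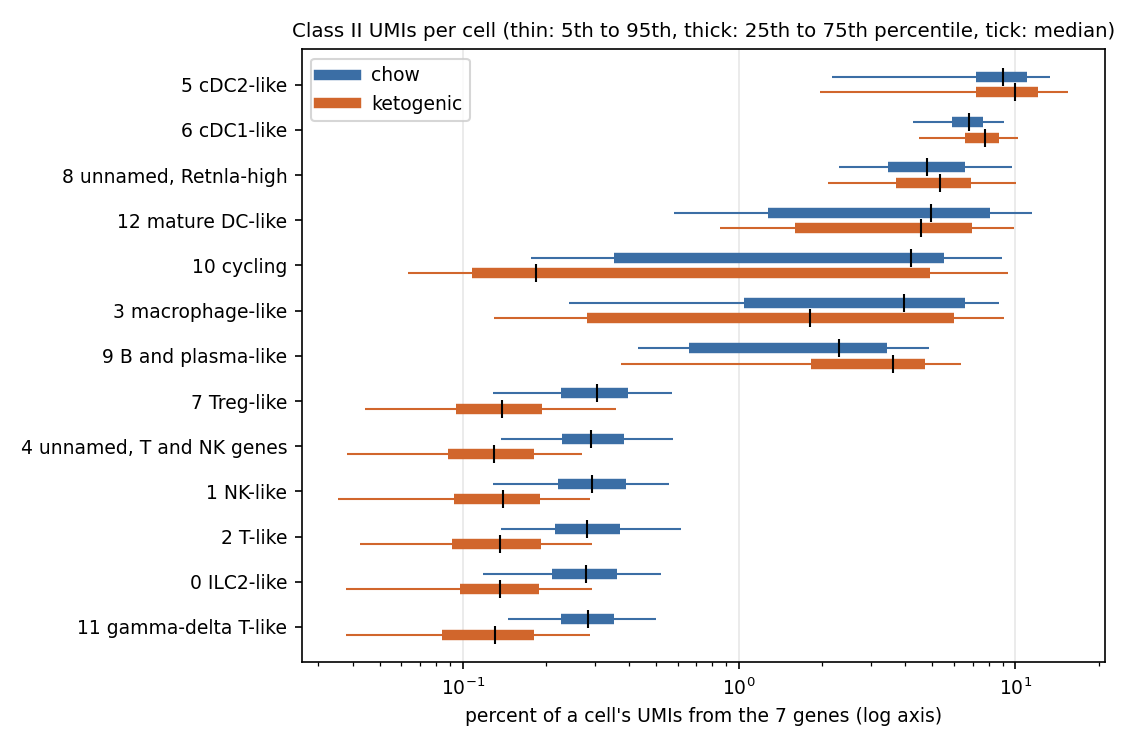
Percent of a cell's UMIs from the 7 genes (log axis) in each cluster, with the median (tick), the 25th to 75th percentile (thick) and the 5th to 95th percentile (thin), chow in blue and ketogenic in orange. The macrophage-like medians are 3.97% and 1.81%, the cDC1-like medians 6.79% and 7.79%, and the 6 lymphoid clusters have medians of 0.278% to 0.307% in chow and 0.130% to 0.139% in the ketogenic library.

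In cDC1-like cells the 5th and 95th percentiles were 4.28% and 9.10% in chow and 4.46% and 10.2% in the ketogenic library, around medians of 6.79% and 7.79%. In cDC2-like cells the 10th and 90th percentiles were 4.16% and 12.6% in chow and 3.28% and 14.1% in the ketogenic library, around medians of 9.04% and 9.94%. Mature DC-like cells had the 25th and 75th percentiles at 1.28% and 8.09% in chow and 1.59% and 6.99% in the ketogenic library. In the cycling cluster the median cell went from 4.20% to 0.184%, while the 90th percentile was 7.78% and 7.70%.

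Within the macrophage-like cluster, class II varied with other genes from cell to cell. Over 859 chow cells thinned to 1000 UMIs, the member sum had its highest Spearman rho among 1176 other genes with Tmem176b (0.37), the complement genes C1qb (0.31), C1qc (0.26) and C1qa (0.26), and the lipid transfer protein gene Pltp (0.30). Over 145 ketogenic cells the rho of these genes was 0.35, 0.26, 0.26, 0.36 and 0.31 in turn. The lowest were Plac8 (-0.42), Chil3 (-0.36), Mgst1 (-0.33), Hp (-0.32) and Msrb1 (-0.32) in chow, with -0.25, -0.40, -0.06, -0.32 and -0.29 in the ketogenic library. Plac8 and Chil3 are known markers of monocytes. All these cells share a library within each diet, and the values are given as a description, with no p.

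The levels of those genes in the cluster also differed between the diets. Plac8 stood at 1237 CPM in chow and 2766 CPM in the ketogenic library, Hp at 158 and 324 CPM, and Chil3 at 608 and 905 CPM. C1qb stood at 787 and 481 CPM, C1qa at 370 and 277 CPM and Pltp at 306 and 134 CPM. Tmem176b, the gene with the highest rho, stood at 558 and 581 CPM, a ratio of 1.04 (0.947 to 1.14). So the 5 genes with the lowest rho were higher in the ketogenic library, and of the 5 with the highest rho the C1q genes and Pltp were lower and Tmem176b was level within its counting error. Of the whole macrophage list, 9 of 10 genes reached the minimum, 2 were at least 1.5-fold higher and 2 lower, and the summed level was 21855 and 23750 CPM. Of the whole monocyte list, 3 of 7 genes were at least 1.5-fold higher and 1 lower, with a summed level of 6725 and 7349 CPM. Summed markers of other cells differed as well, with T (CD8) at 441 and 906 CPM, ILC2 at 403 and 133 CPM and neutrophils at 300 and 57.1 CPM. Their part in the class II difference was not tested.

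Splitting 4 clusters cell by cell, by which of 2 marker lists had more UMIs, gave the class II level on each side of the cut. Cells within 2 UMIs of the cut, ties included, numbered 23 in the macrophage-like cluster, 0 in the B and plasma-like cluster, 13 in the cycling cluster and 63 in the cDC2-like cluster. On the macrophage side of cluster 3 the sum was 43771 CPM in chow (799 cells) and 34089 CPM in the ketogenic library (138 cells), a ratio of 0.779 (0.769 to 0.788) close to the 0.773 of the whole cluster. On the monocyte side it was 18086 CPM (56 cells) and 2248 CPM (6 cells). The 5 cells with equal marker sums, 4 in chow and 1 in the ketogenic library, were left out. In this cluster the macrophage list summed to far more UMIs than the monocyte list, so the cut puts most cells on the macrophage side. The ratio of that side is thus tied to that of the whole cluster. It cannot show the part of monocyte-like cells in the difference.

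In the cycling cluster the antigen-presenting side had 51133 CPM in chow and 54130 CPM in the ketogenic library, a ratio of 1.06 (1.05 to 1.07), and the lymphoid side 2306 and 1172 CPM. The antigen-presenting side made up 112 of 142 chow cells but 79 of 154 ketogenic cells. On the side that carried class II the sum was thus not lower in the ketogenic library. There H2-Eb1 stood at 5703 and 5333 CPM and H2-DMa at 916 and 817 CPM.

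In the B and plasma-like cluster the B side had 32217 CPM in chow (47 cells) and 36812 CPM in the ketogenic library (194 cells), and the plasma side 7106 (35 cells) and 8388 CPM (51 cells). The ratios were 1.14 (1.11 to 1.18) and 1.18 (1.14 to 1.23), both smaller than the 1.67 of the whole cluster, whose B side was 47 of 82 cells in chow and 194 of 245 in the ketogenic library. On the B side H2-Aa stood at 4393 and 5495 CPM and H2-DMb1 at 173 and 122 CPM. In the cDC2-like cluster the pDC side, with 37 and 55 cells, had 43156 and 45799 CPM, below the 94776 and 104609 CPM of the cDC2 side.

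**Figure D5:**
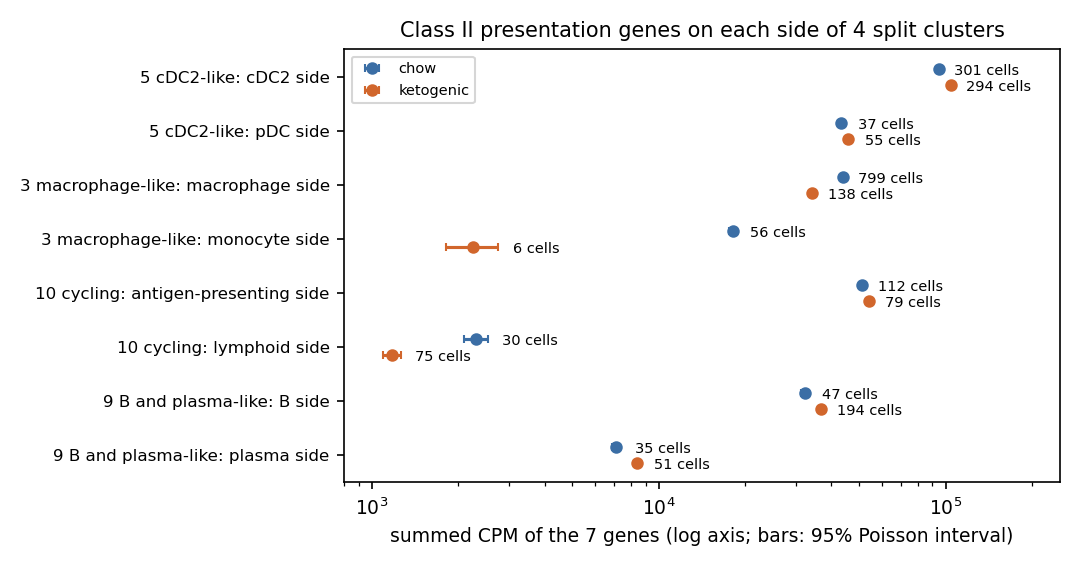
Summed CPM of the 7 genes (log axis, bars for the 95% Poisson interval) on each side of the clusters split by marker sums, with the number of cells beside each point, chow in blue and ketogenic in orange. On the antigen-presenting side of the cycling cluster and on both sides of the B and plasma-like cluster the ketogenic point lies to the right of the chow point, at ratios of 1.06, 1.14 and 1.18.

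Over all clustered cells the class II sum was lower in the ketogenic library, at 27875 CPM against 39896 CPM, a ratio of 0.699 (0.696 to 0.701). The 7 genes ranged from 0.622 for H2-DMa to 0.715 for Cd74. With each cluster given its share of cells averaged over both libraries, the ratio was 0.942, from 23174 to 21830 CPM. That is a log2 ratio of -0.086, which turned to 0.016 after subtraction of a free-RNA share of 10% from every cluster. The sources of the UMIs shifted. Clusters 3 and 8 gave 43.3% of the class II UMIs in chow and 6.15% in the ketogenic library, and the cDC2-like and cDC1-like clusters 42.6% and 74.2%. Clusters 3 and 8 held 859 and 362 chow cells, against 145 and 47 ketogenic cells. The 6 lymphoid clusters gave 3.52% and 4.75%.

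The other class II genes had patterns of their own. H2-Eb2 was found mainly in mature DC-like cells, at 110 and 139 CPM (43 and 48 UMIs), against 0 to 19.9 CPM in every other cluster. H2-Oa, a chain of the H2-DM inhibitor H2-O, stood at 120 and 206 CPM in cDC2-like and at 113 and 150 CPM in cDC1-like cells. In ILC2-like cells it stood at 60.1 and 76.2 CPM, against 4.45 and 8.62 CPM in NK-like cells, while its partner H2-Ob was at 4.20 and 4.82 CPM there and 5.56 and 5.56 CPM in NK-like cells. The interval of H2-Oa in ILC2-like cells lay above that of the NK-like background in both libraries (50.7 to 70.8 against 1.92 to 8.77 CPM in chow), while the class II sum of ILC2-like cells lay below that of NK-like cells in both. H2-Ob was highest on the B side of cluster 9, at 233 and 229 CPM.

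Of 42 other genes of the route that were listed (further class II genes, class II transcription factors, the interferon-gamma route, lysosomal proteases, turnover and co-stimulation), 38 are among the symbols of the files. In the macrophage-like cluster 7 of 29 at the minimum were at least 1.5-fold higher in the ketogenic library and 2 lower, beside 9.39% and 8.87% of all genes. Irf8, a myeloid transcription factor, had the highest ratio of the list, at 53.2 and 123 CPM. The lowest 2 were H2-DMb2 (25.6 and 11.2 CPM) and Irf4 (26.8 and 13.4 CPM).

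In the cDC2-like cluster 3 of 29 were higher and 2 lower, beside 6.34% and 5.19% of all genes. Irf8 had the highest ratio, at 96.1 and 208 CPM, followed by H2-Oa, and Irf4 the lowest, at 66.7 and 30.4 CPM, followed by Nfya, a subunit of the factor that binds the Y box, at 36.7 and 19.2 CPM. In cDC1-like cells 2 of 26 were higher and 1 lower, beside 6.75% and 4.2% of all genes, and the highest 2 ratios were those of Rfxap, a subunit of the factor that binds the X box (14.3 and 23.5 CPM), and Irf8 (727 and 1176 CPM). The lowest 2 were Jak2, the only one past 1.5-fold (59.4 and 39.3 CPM), and Nfya.

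Cluster 8 had 1 of 20 higher, Ifngr2, followed by Ctsb, and 3 lower, with Irf4 and Creb1 lowest, beside 5.71% and 14.3% of all genes. Irf4 stood there at 79.3 and 27.8 CPM, the latter from 7 UMIs. The mature DC-like cluster had 1 of 10 higher, again Irf8 (105 and 237 CPM), and 0 lower, with the protease gene Ctss lowest at 1191 and 902 CPM, then Jak2, and H2-DMb2 second highest; of all genes there 8.35% were higher and 7.97% lower. The cycling cluster had 2 of 22 higher, Nfyb and Ctsd, and 2 lower, H2-Ob and Ctss, the latter at 434 and 240 CPM, beside 12.5% and 8.42% of all genes. The B and plasma-like cluster had 13 of 18 higher, led by H2-Oa, and 1 lower, Irf4, a factor of plasma cells, at 102 and 33.0 CPM, with Cst3 next. In that cluster 42.8% of all genes were higher and 3.11% lower. Irf8 thus had 1 of the 2 highest ratios in clusters 3, 5, 6 and 12, and Irf4 1 of the 2 lowest in clusters 3, 5, 8 and 9. The median log2 ratio of the list was 0.21 in cluster 3, 0.11 in 5, 0.15 in 6, -0.099 in 8, 0.81 in 9, -0.27 in 10 and 0.078 in 12, beside medians over all genes of 0.044, 0.025, 0.073, -0.042, 0.50, 0.082 and -0.0048 in turn.

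Across the 26 sums of a cluster and a library the members moved closely together. The Pearson r of each gene's log2(CPM + 10) with the mean of the other 6 ran from 0.918 for Ciita to 0.998 for H2-Ab1, with H2-DMa at 0.981 and H2-DMb1 at 0.933. Among 10361 genes the most like the members were Plekho1 (r of 0.97), Pld4 (0.96), the DC maturation marker Cd83 (0.96), Erp29 (0.96), Spi1 (0.95), which encodes the myeloid and B cell factor PU.1, Rassf4 (0.95), Srsf9 (0.95), Irf5 (0.94), Skap2 (0.94) and Ly86 (0.94). These sums come from 2 libraries and differ in depth, and the r is a description with no p.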

How the data were processed

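The authors' deposited matrices are tables of UMI counts, by cell and gene, from 1 chow and 1 ketogenic library; their whole numbers and their headers show no normalisation. Cell Ranger, Seurat and the build mm10 are named in the submitters' processing notes, with no role given. The authors' cluster table gives a cluster number at resolution 0.5 for 10017 cells, and the other 142 were left out of all clusters.

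Libraries were grouped by the treatment label. UMIs of each gene were summed per cluster and library and divided by the cluster's total. Ratios carry exact conditional 95% intervals, levels exact Poisson and shares exact Clopper-Pearson ones. For log2 ratios 0.5 was added to each count. A gene was counted from 100 UMIs over both libraries, and called from 1.5-fold in either direction. With 1 library per diet no test was run. The ratio and likeness computations were tested on simulated data. PCR copies collapse into UMIs, but intervals cover counting error only.

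A marker counted as raised when its CPM plus 20 was at least 2-fold that of all other clustered cells. A name needed at least 3 raised markers, with at least 1 among the 10 leading genes. Several lists met this in 5 clusters: 2 and 9 carry a joint name, 3 was named from macrophage markers (9 of 10 raised, against 4 of 7 monocyte ones), 7 from Treg markers (7 of 7, against 6 of 9 ILC2 ones), and 4, led by T and NK cell genes, was left unnamed. Doublets were not called. Named genes were all 7 members, the 2 highest and 2 lowest ratios of the pathway list in each antigen-presenting cluster, the 10 genes most like the members, and the 5 highest and lowest rho in macrophage-like cells; further class II genes, and the levels of the rho genes by diet, were chosen after their values were seen. One item that this rule names is not reported here. The members and lists were chosen with earlier results of these data known. Promoters matched 4 of 7 members in the RefSeq table, and positions come from GENCODE M21. Alternatives, described at the end, were another cell filter, means over cells, scaling by the median gene, subtraction of free RNA, leaving out the largest cells, other folds and minimums, and other thinning depths. Python 3.11.15, numpy 2.4.6, scipy 1.17.1 and pandas 2.3.3 were used.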

Additional observations from a re-analysis of the deposited data

Results flagged for a closer look

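The diet ratios of the same gene went opposite ways in different clusters, with counting intervals that leave out 1, and this difference between clusters was not tested. In cluster 4 the sum's ratio was 0.428 without the 2% of cells with the most UMIs. The B and plasma-like cluster had the highest and cluster 4, with T and NK genes, the lowest ratio for H2-Aa (2.05 and 0.258), H2-Ab1 (1.72 and 0.281), H2-Eb1 (1.81 and 0.197), H2-DMa (1.56 and 0.323), Cd74 (1.58 and 0.224) and the sum of the 7 genes (1.67 and 0.242). Divided by the median ratio of all genes, the sum's ratio was 1.177 in the B and plasma-like cluster and 1.179 in cluster 8. The highest rank thus depends on the scaling. H2-DMb1 had its highest ratio in cDC1-like cells (1.25) and its lowest in cluster 4 (0.303). Beside these, the share of B-side cells in the B and plasma-like cluster differed between the libraries, and 14 of 269 chow cells held 62.6% of the class II UMIs of cluster 4; their part was not tested.

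The authors' cluster table leaves out 87 chow and 55 ketogenic cells, all with more than 5% mitochondrial UMIs. In these cells, which no comparison used, the class II sum was 14451 CPM in chow (interval 13955 to 14959) and 13246 CPM in the ketogenic library (12713 to 13796), far above the level that 3 counts would give there (13.5 and 17.1 CPM).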

How the results depend on the processing

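The log2 ratio of the class II sum (ketogenic over chow) kept its direction in all 13 clusters under 4 alternatives, and in clusters 3, 5, 6, 7, 8, 9, 10 and 12 also after subtraction of free RNA, which leaves no usable ratio in the other 5; in the order of clusters 0 to 12 it was -1.04, -1.16, -1.19, -0.37, -2.05, 0.11, 0.18, -0.69, 0.19, 0.74, -0.43, -0.22, -0.12. The values that left the counting interval follow. With cells of at least 2048 UMIs in both libraries, it was -1.24 in cluster 1, -2.17 in cluster 4, -0.90 in cluster 7 and 0.83 in cluster 9. As a mean over cells of the CPM per cell, it was -0.996 in cluster 0, -1.04 in cluster 1, -1.09 in cluster 2, -0.29 in cluster 3, -1.39 in cluster 4, -0.64 in cluster 7, 0.089 in cluster 8, 0.61 in cluster 9, -0.59 in cluster 10 and -0.60 in cluster 11. Divided by the median ratio of all genes, it was -1.12 in cluster 0, -1.28 in cluster 2, -0.42 in cluster 3, -2.12 in cluster 4, 0.085 in cluster 5, 0.11 in cluster 6, -0.77 in cluster 7, 0.24 in cluster 8, 0.23 in cluster 9 and -0.51 in cluster 10. With 10% of each cluster's UMIs subtracted as free RNA of the library's make-up, it was -5.43 in cluster 0, -4.83 in cluster 1, -5.49 in cluster 2, -8.92 in cluster 4, 0.13 in cluster 5, 0.22 in cluster 6, -0.80 in cluster 7, 0.24 in cluster 8, 1.07 in cluster 9 and -1.55 in cluster 11. Without the 2% of cells with the most UMIs, it was -0.98 in cluster 0, -1.06 in cluster 1, -1.05 in cluster 2, -1.23 in cluster 4, -0.35 in cluster 7, 0.23 in cluster 8 and -0.81 in cluster 11. The subtraction takes 10% of the whole-library level (39896 CPM in chow, 27875 CPM in the ketogenic library), which is above the class II level of clusters 0, 1, 2, 4 and 11 in the ketogenic library and of clusters 0 and 11 in chow. The values there are ratios of remnants and say nothing about size or direction; the Treg-like cluster stands above the subtracted level. Elsewhere the cause was not tested. Over all cells, with averaged cluster shares, the log2 ratio was -0.086. It was -0.053 as a mean over cells, -0.16 after division by the median ratio, 0.016 (the opposite direction) after the subtraction, -0.039 without the 2% of cells, and -0.52 with the cells as they are. The count of members at least 1.5-fold lower in clusters 5, 6, 8, 10 and 12 was 5 as a mean over cells and 0 at 2-fold, against 3; that of higher members became 5 when clusters 3 and 9 were added, against 0. Without lymphoid cells that held any UMI of 12 genes of antigen-presenting cells, which left 2.97% to 18.6% of a cluster's cells, the class II sum was 2701 CPM in chow and 1391 CPM in the ketogenic library in cluster 0, 2937 CPM in chow and 1536 CPM in the ketogenic library in cluster 1, 2565 CPM in chow and 1446 CPM in the ketogenic library in cluster 2, 3201 CPM in chow and 1325 CPM in the ketogenic library in cluster 4, 3759 CPM in chow and 1396 CPM in the ketogenic library in cluster 7, 2687 CPM in chow and 963 CPM in the ketogenic library in cluster 11. The share of cells with a class II UMI, unthinned and thinned to 2000 UMIs, was 99.9% and 99.5% in cluster 0 (chow), 98.6% and 94.2% in cluster 0 (ketogenic), 99.7% and 99.6% in cluster 1 (chow), 98.3% and 93.7% in cluster 1 (ketogenic), 99.4% and 99.1% in cluster 7 (chow), 99.4% and 94.5% in cluster 7 (ketogenic), 100% and 100% in cluster 9 (ketogenic). Of 388 recomputed ratios of single members, 381 had the sign of the main value. This count includes the subtracted ratios of clusters 0, 1, 2, 4 and 11, which are remnants and say nothing about direction. Besides H2-DMa in cluster 0, those that turned were H2-Ab1 and H2-DMb1 in cluster 8 as a mean over cells, H2-DMb1 in cluster 9 after division by the median ratio, Cd74 in cluster 11 with the minimum cell total, and H2-Eb1 in cluster 11 and H2-Aa in cluster 12 after the subtraction. Of 189 recomputed ratios of members past 1.5-fold, the remnants of clusters 0, 1, 2, 4 and 11 included, 170 stayed past it in the same direction. Of the 19 others, 7 were in cluster 7 (5 without the 2% of cells, 2 as a mean over cells), 7 in cluster 9 (5 after division by the median ratio, 2 as a mean over cells), 3 in cluster 0 (H2-DMa), 1 in cluster 1 (H2-DMa) and 1 in cluster 10 (H2-Eb1). The exception in direction among those past 1.5-fold was H2-DMa in cluster 0, at -0.60 and at 2.35 after the subtraction. No paired analysis was possible because each diet has 1 library.

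With 1 library per diet, an effect of the diet, of the animals and of the library cannot be told apart. Intervals cover counting error only. Ciita's few UMIs limit it to 2 clusters, and clusters 8 and 12 hold 47 and 49 ketogenic cells.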

Other observations

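H2-DMb2, the second beta chain gene of H2-DM, had another order of clusters than H2-DMb1. In mature DC-like cells H2-DMb2 stood at 239 CPM in chow and 298 CPM in the ketogenic library, beside 210 and 317 CPM in cDC2-like cells, while H2-DMb1 stood at 187 and 107 CPM against 1121 and 1297 CPM. In macrophage-like cells H2-DMb2 stood at 25.6 and 11.2 CPM and H2-DMb1 at 763 and 663 CPM. Both genes share stretches of sequence, so how the authors' counting split their reads can affect both values. On the B side of the B and plasma-like cluster H2-DMb2 stood at 705 and 775 CPM, and on the plasma side at 7.43 and 21.5 CPM.

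H2-Eb2, next to H2-Eb1, was found on the B side at 23.9 and 38.6 CPM, from 4 and 32 UMIs, beside the 110 and 139 CPM of mature DC-like cells. In cDC2-like cells it stood at 4.08 and 2.53 CPM.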
